A study of Mus musculus with 6 samples.

Results

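The PGC1 coactivators and the regulators of mitochondrial biogenesis that act with them were compared between MIN6 cells cultured without epinephrine and MIN6 cells of chronic epinephrine exposure. The 10 genes were taken by symbol from the 22298 genes of the deposited table, and each was found in 1 row. They are Ppargc1a, Ppargc1b, Pprc1, Esrra, Esrrg, Nrf1, Gabpa, Tfam, Tfb1m and Tfb2m, and all 10 were among the 12747 genes that passed the filter on low counts and were tested. MIN6 is a mouse insulinoma line that makes and secretes insulin, and RNA was sequenced from 3 control samples and 3 epinephrine samples of it. Exposed cells received 100 nM epinephrine for 3 days, followed in the scheme of the study by 2 days without it, and the day on which RNA was taken is not given in the sources used here. All samples come from this single line, and the methods of the study call its replicates biological and its samples independent, without saying how the RNA samples of a group were kept apart.

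PGC1 alpha, the product of Ppargc1a, is a coactivator that does not bind DNA itself. It docks on nuclear receptors such as the estrogen-related receptors (ERR) and on the nuclear respiratory factors NRF1 and GABP, and so raises transcription of nuclear genes for mitochondrial proteins. Among these are the factors that transcribe mitochondrial DNA, namely TFAM and TFB2M. Cyclic AMP and CREB are known to switch Ppargc1a on in liver, muscle and brown fat, and epinephrine lowers cyclic AMP in beta cells through its alpha2A receptor.

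Chronic epinephrine went with a doubling of Ppargc1a RNA and with no change that passed the test in the other 9 genes. Ppargc1a was 1.98-fold higher (log2 fold change 0.99, SE 0.14, edgeR FDR 0.00906), where FDR is the p-value of edgeR's quasi-likelihood test adjusted over all genes tested. Of all genes tested, 2.02% were higher and 0.612% were lower at an FDR under 0.05. Thus 1 of the 10 genes rose and 0 fell, and 2 had an unadjusted p under 0.05, Ppargc1a and Esrrg, where 17.1% of all genes tested had one. DESeq2, which called 3.18% of its genes as higher and 2.04% as lower, also called 1 of the 10, Ppargc1a (FDR 0.000192), while limma on FPKM values, with 1.57% of genes called as higher and 0.486% as lower, called 0. The 10 genes had a median log2 fold change of -0.01, and all genes tested one of 0.00.

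**Figure D1:**
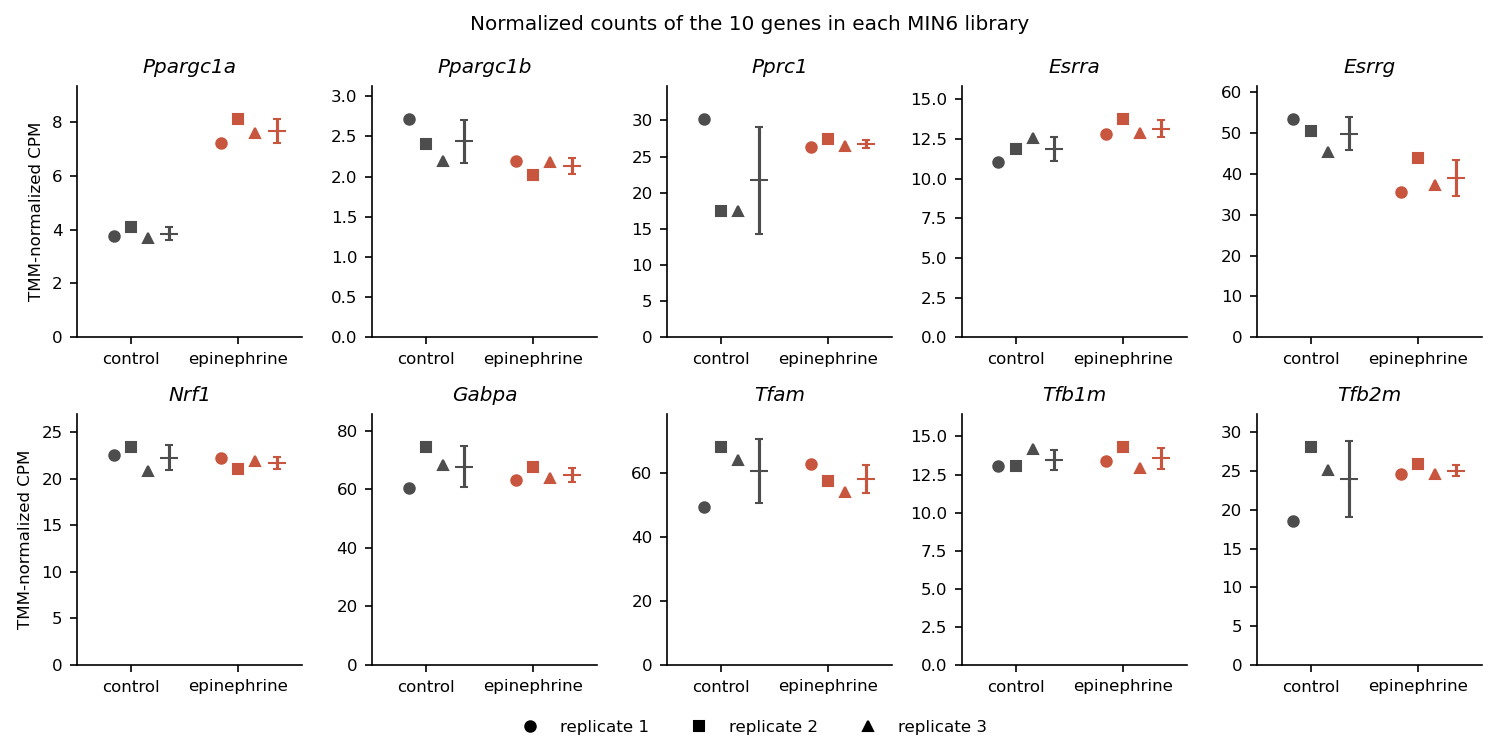
Normalized counts (CPM, counts scaled to library size by TMM) of the 10 genes in 3 control libraries (grey) and 3 epinephrine libraries (red), with the symbol giving the replicate number and the bar the mean ± SD. The epinephrine values of Ppargc1a lie between 7.24 and 8.13 CPM, above controls of 3.69 to 4.12 CPM, while control 1 stands apart from the other two controls for Pprc1, Tfam and Tfb2m.

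The libraries held 15017065 to 18127171 expected counts. The defining beta-cell gene Ins2 lay between 24520 and 37100 CPM, and all 11 beta-cell markers passed the filter on low counts. Of these 11, 2 fell after epinephrine, Slc2a2 (log2 fold change -0.76, edgeR FDR 0.00434) and Ins1 (-0.50, FDR 0.0152), while Ins2 had a log2 fold change of 0.01 (FDR 0.974). The remaining 8 did not pass, with log2 fold changes from -0.53 for Nkx6-1 to 0.33 for Iapp, the only positive value among them. On the first principal component of log2 CPM, control 1 stood at -38.9 and the other 5 libraries between -2.37 and 15.9. Values without control 1 are given beside the results whose call it changes, but not for the cell-type markers. A fit without control 1 called 12.1% of genes as higher and 9.46% as lower. The 5 hepatocyte markers summed to 45.8 and 118 CPM in controls 2 and 3 and to at most 0.793 CPM elsewhere, and the 4 skeletal muscle markers to 91.7 and 69.1 CPM in epinephrine 1 and 2 and to at most 2.06 CPM elsewhere. Alpha-cell markers (3 genes, none at 0) summed to 177 to 213 CPM in the controls and 378 to 411 CPM after epinephrine. Leukocyte markers (4 genes, none at 0) summed to 0.40 to 1.25 and 2.13 to 3.68 CPM. Of the alpha-cell markers 2 were tested and 1 had an edgeR FDR under 0.05. Of the leukocyte markers 1 was tested, and it had one too. The sums therefore do not show that every marker of a type was higher. In this RNA from whole cultures, fewer cells of a type and less RNA per cell cannot be told apart.

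Ppargc1a (ENSMUSG00000029167) lies on the minus strand of chromosome 5 of GRCm38, from 51454250 to 51567726. Its RefSeq promoter is shown because it is the gene that rose. The 250 bases before the start site, chr5:51567726-51567975 of GRCm38.p6, read on the minus strand, with a half-site of the CREB motif in capitals (CGTCA, the reverse complement of TGACG) that begins 49 bases before the start site.
Ppargc1a promoter: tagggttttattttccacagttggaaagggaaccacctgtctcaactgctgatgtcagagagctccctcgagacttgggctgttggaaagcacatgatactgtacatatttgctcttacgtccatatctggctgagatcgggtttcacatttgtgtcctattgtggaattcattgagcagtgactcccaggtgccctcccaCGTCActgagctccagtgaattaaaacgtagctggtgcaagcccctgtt
The half-site TGACG, on either strand, is held by 17.8% of 32851 RefSeq promoter windows of this length, and the whole CREB motif TGACGTCA, which contains the half-site, by 1.55%. Of 13 windows of 9 of the 10 genes, 0 held the whole motif. The half-site was also found in the window of Tfb1m, at 132 and 87 bases before its start site, and Tfb1m had a log2 fold change of 0.01.

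Other motifs of the pathway were searched in the same windows, since the regulators are themselves described as targets of NRF1, GABP and ERR. The ETS motif CCGGAAG, to which GABP binds, is held by 6.91% of all windows and was found in those of Tfam and Gabpa. The NRF1 motif GCGCANGCG is held by 5.16% and was found in that of Esrra, and the ERR core AAGGTCA is held by 4.08% and was found in 0 of the 13. Each match is given in capitals with 12 bases on either side, on the strand of the gene. They begin 47, 93 and 141 bases before the RefSeq start sites, and lie at chr10:71238073-71238103 (minus strand), chr16:84835019-84835049 (plus strand, motif reversed) and chr19:6921929-6921961 (minus strand). For Tfam and Gabpa the RefSeq start site lies inside the gene as GENCODE places it, and so do both ETS matches.
Tfam, ETS motif: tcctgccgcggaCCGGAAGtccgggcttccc
Gabpa, ETS motif: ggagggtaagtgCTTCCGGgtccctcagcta
Esrra, NRF1 motif: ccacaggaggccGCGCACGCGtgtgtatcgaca
A match is a description of these letters only, and none of these 3 genes passed the test after epinephrine.

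Among the 3 coactivators of the PGC1 family, Ppargc1a was covered by 58, 72 and 59 expected counts in controls 1, 2 and 3 and by 122, 145 and 115 after epinephrine. In normalized counts it stood at 3.76, 4.12 and 3.69 CPM in the controls and at 7.24, 8.13 and 7.60 CPM after epinephrine. Every epinephrine sample thus lay above every control, and the gap between the groups was several times the spread within either. The means were 3.85 ± 0.228 and 7.65 ± 0.447 CPM (SD, n = 3), and the 95% interval of the change was 1.6- to 2.46-fold. By exact permutation of these 6 values (two-sided) p was 0.1, which is as low as 3 samples against 3 can reach. Its FDR was 8.54e-05 without control 1, and it was 0.0651, 0.0826 and 0.0653 without epinephrine 1, 2 and 3, where the log2 fold change lay between 0.94 and 1.03. The muscle markers summed to 91.7, 69.1 and 0.859 CPM in epinephrine 1, 2 and 3, and brown adipocyte markers to at most 0.343 CPM in any library. The part of RNA from either cell type in the result was not tested. The summed alpha-cell and leukocyte markers were higher in the samples in which Ppargc1a was higher. In the same samples the beta-cell genes Slc2a2 and Ins1 were lower. The part of these differences in the result was not tested.

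The FPKM values of Ppargc1a, which the authors scaled to transcript length, showed the same direction with a wider spread. They were 1.08, 0.64 and 0.60 in the controls and 1.27, 1.62 and 2.23 after epinephrine, and the groups did not overlap. Dividing the counts by the FPKM and the total of each library gives the transcript length behind each value, which was 3.58, 6.44 and 6.12 kb in the controls and 5.67, 4.94 and 3.38 kb after epinephrine. This length was short in control 1 and epinephrine 3 and long in controls 2 and 3. The groups overlapped through control 1 alone, since controls 2 and 3 lay above every epinephrine sample. The highest was 1.91 times the lowest, a ratio below which 98.4% of the genes tested lay. GENCODE release M21 lists 5 transcripts of the gene, from 488 to 6464 nt. On the log2(FPKM + 1) scale, where 1 is added to values near 1 and differences of low genes are understated, the difference was 0.61 (limma FDR 0.109). The cause of the differing lengths was not tested.

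**Figure D2:**
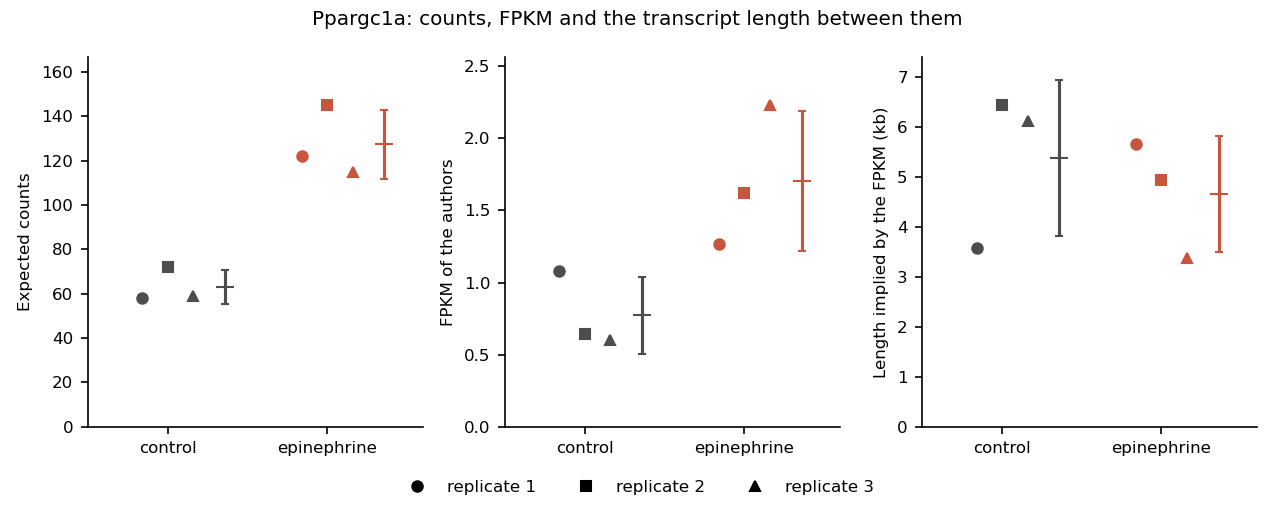
Expected counts, FPKM and implied transcript length (kb) of Ppargc1a in each library, with the symbol giving the replicate number and the bar the mean ± SD of controls (grey) or epinephrine samples (red). Counts separate the groups at 58 to 72 against 115 to 145, while the implied length of 3.38 to 6.44 kb varies within both groups.

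The primers that the study used for RT-qPCR of this gene are shown because they fix which part of the transcript a PCR would read.
PGC1 alpha forward: caacaatgagcctgcgaaca
PGC1 alpha reverse: gcatcaaatgagggcaatcc
Both were found, without mismatch, in 5 of the 5 annotated transcripts of Ppargc1a and enclose 126 bases, which lie at bases 341 to 466 of the longest.

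Ppargc1b, which encodes the close relative PGC1 beta and lies on chromosome 18, was the least abundant of the 10, with 33 to 42 counts per library. It stood at 2.72, 2.40 and 2.19 CPM in the controls and at 2.19, 2.02 and 2.18 CPM after epinephrine. The groups overlapped, with control 1 the highest. The log2 fold change was -0.19 (SE 0.19, edgeR FDR 0.662), with an interval from 0.643- to 1.19-fold, and a change within these bounds is not excluded. Relative to Ppargc1b in the same library, Ppargc1a was higher in every epinephrine sample than in every control, although 3 samples against 3 cannot reach an exact p under 0.05. The log2 ratio of the FPKM values of Ppargc1a to Ppargc1b was 0.49, -0.09 and 0.00 in the controls and 1.08, 1.58 and 1.92 after epinephrine, a difference of 1.39 (exact permutation p = 0.1, 0.15 adjusted over 3 ratios). The groups did not overlap, and with normalized counts in place of FPKM the difference was 1.18.

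Pprc1 (ENSMUSG00000055491, chromosome 19 from 46044886 to 46072915) encodes PRC, the third coactivator of the family, known as a serum-induced partner of NRF1. Its level in the controls was split. Control 1 stood at 30.2 CPM, above every epinephrine sample, and controls 2 and 3 at 17.5 and 17.4 CPM, below all of them. The epinephrine samples were close together at 26.3, 27.4 and 26.5 CPM. Over all samples the log2 fold change was 0.30 (SE 0.20, edgeR FDR 0.495), and without control 1 it was 0.62 (SE 0.09, FDR 6.32e-06). A call for Pprc1 thus rests on a single control library. Its exons overlap those of Ldb1 on the other strand, and whether the counting used strand is not given in the sources used here.

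The 2 estrogen-related receptors, orphan nuclear receptors through which PGC1 alpha acts on genes of respiration, did not pass the test with all samples. Esrrg (ENSMUSG00000026610, chromosome 1 from 187608791 to 188214885) stood at 53.5, 50.6 and 45.5 CPM in the controls and at 35.6, 44.0 and 37.4 CPM after epinephrine. All epinephrine samples lay below all controls, by a narrow margin between epinephrine 2 and control 3. The log2 fold change was -0.35 (SE 0.11, edgeR FDR 0.150), with an unadjusted p of 0.0113, so it did not pass the test. Without control 1 it was -0.30 (FDR 0.00667), and with DESeq2 the FDR was 0.0969. Esrra (ENSMUSG00000024955, chromosome 19 from 6910977 to 6921813) stood at 11.1, 11.9 and 12.6 CPM in the controls and at 12.8, 13.8 and 12.9 CPM after epinephrine. The groups did not overlap, but lay close together, and the log2 fold change of 0.15 (SE 0.11, edgeR FDR 0.510) had an interval from 0.940- to 1.31-fold. Esrra shares exon sequence with Trmt112 on the other strand and with Mir6990.

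The ratio of the receptors to each other was lower in every epinephrine sample than in every control, although 3 samples against 3 cannot reach an exact p under 0.05. The log2 ratio of Esrrg to Esrra in FPKM was 0.82, 0.89 and 0.66 in the controls and 0.08, 0.39 and 0.14 after epinephrine, a difference of -0.59 (exact permutation p = 0.1, 0.15 adjusted over 3 ratios). The groups did not overlap, and the difference was -0.51 with normalized counts. Of the 10 genes, Ppargc1a and Esrra had all epinephrine samples above all controls and Esrrg had them all below. Among all genes tested, 14.3% had all epinephrine samples above all controls and 13% had them all below, so the counts of 2 and 1 are near the background.

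**Figure D3:**
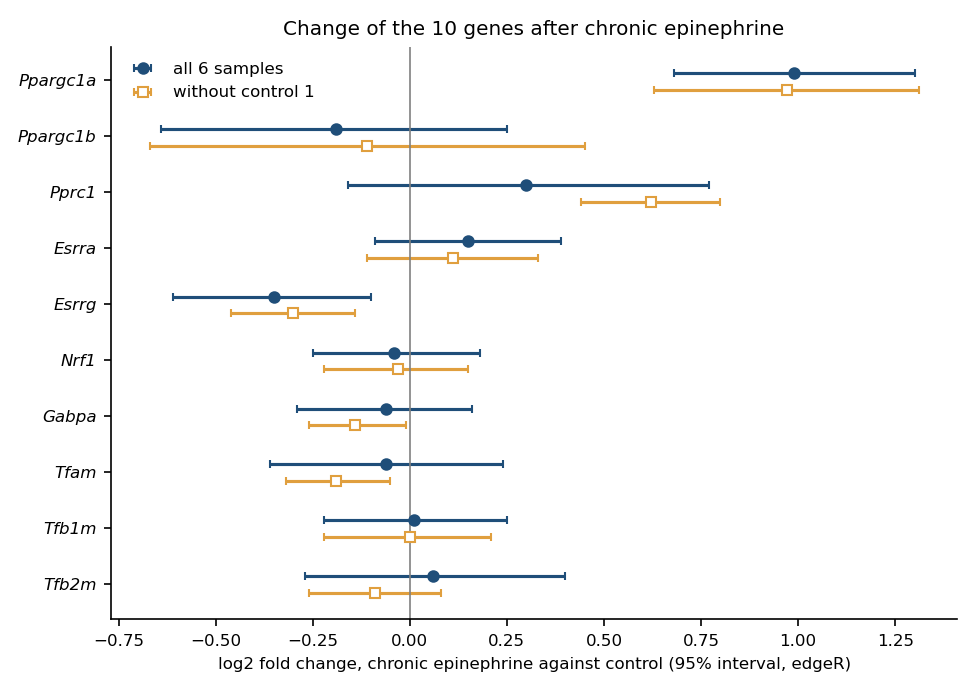
Log2 fold change of the 10 genes after chronic epinephrine with its 95% interval from edgeR, from all 6 samples (filled circles) and without control 1 (open squares). Ppargc1a lies near 1 in both fits, the value of Pprc1 moves from 0.30 to 0.62, and the other 8 stay between -0.35 and 0.15.

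With all samples, the nuclear respiratory factors showed no difference beyond the spread between replicates. Nrf1 (ENSMUSG00000058440), a DNA-binding activator of genes for respiration and for the mitochondrial transcription factors and a different gene from the antioxidant factor NRF2, lies on chromosome 6 from 30047988 to 30153458. It stood at 22.5, 23.5 and 20.9 CPM in the controls and at 22.3, 21.1 and 21.9 CPM after epinephrine (log2 fold change -0.04, SE 0.09, edgeR FDR 0.876). The epinephrine values lay inside the range of the controls, and the interval of the change was 0.840- to 1.13-fold. Gabpa (ENSMUSG00000008976, chromosome 16 from 84834925 to 84863779) encodes the DNA-binding subunit of GABP, also called NRF-2. It stood at 60.5, 74.7 and 68.2 CPM in the controls and at 63.3, 67.6 and 63.9 CPM after epinephrine, inside the range of the controls. Its log2 fold change was -0.06 (SE 0.10, edgeR FDR 0.785), with an interval from 0.821- to 1.12-fold, and its exons overlap those of Atp5j on the other strand.

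None of the 3 factors that act on mitochondrial DNA and ribosomes passed the test with all samples. Tfam (ENSMUSG00000003923, chromosome 10 from 71225464 to 71238280), which packs mitochondrial DNA and opens its promoters, stood at 49.2, 68.2 and 64.0 CPM in the controls and at 62.6, 57.3 and 54.1 CPM after epinephrine. Control 1 was the lowest of the 6 and controls 2 and 3 the highest. The log2 fold change was -0.06 (SE 0.13, edgeR FDR 0.852), and without control 1 it was -0.19 (SE 0.07, FDR 0.0424). Without control 2 it was 0.03, so its direction depends on which control is kept. Tfb2m (ENSMUSG00000026492, chromosome 1 from 179528055 to 179546267), the partner with which the mitochondrial RNA polymerase starts transcription, showed the same pattern in the controls, at 18.6, 28.2 and 25.2 CPM. After epinephrine it stood at 24.6, 25.9 and 24.7 CPM (log2 fold change 0.06, SE 0.15, edgeR FDR 0.860, and -0.09 without control 1). Of its sequence windows of 50 bases, 31.9% are shared with Gm1818, so its counts are uncertain.

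Tfb1m (ENSMUSG00000036983, chromosome 17 from 3519256 to 3557781), a methyltransferase of the small mitochondrial ribosomal RNA, had the log2 fold change nearest 0 of the 10 genes. It stood at 13.1, 13.1 and 14.2 CPM in the controls and at 13.4, 14.3 and 12.96 CPM after epinephrine, with overlapping groups. The log2 fold change was 0.01 (SE 0.10, edgeR FDR 0.964) and its interval ran from 0.857- to 1.19-fold. The log2 ratio of Tfb2m to Tfb1m in FPKM differed by 0.07 between the groups (exact permutation p = 0.7). It ran from -0.30 in control 1 to 0.30 in control 2, wider than the range of 0.05 to 0.12 after epinephrine. Tfb1m exons overlap Tiam2 on the other strand.

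Compared per transcript length, Tfam was the most abundant of the 10 genes and the PGC1 coactivators the least. Tfam averaged 37.5 ± 4.64 FPKM over the 6 samples (SD, n = 6) and Gabpa 16.4 ± 1.61, and their ranges did not meet each other or those of the genes below. Nrf1, Tfb2m, Tfb1m, Esrrg, Esrra and Pprc1 followed with means of 10.1, 9.99, 9.63, 8.66, 6.09 and 5.66 FPKM, and each of these overlapped its neighbour in the order. Ppargc1a, at 1.24 ± 0.620 FPKM, lay below all of them, and Ppargc1b was at 0.630 ± 0.0820. These last overlapped in the controls, at 0.60 to 1.08 and 0.60 to 0.77 FPKM, and not after epinephrine, at 1.27 to 2.23 and 0.54 to 0.60 FPKM. After its rise Ppargc1a was still below Pprc1, since its highest value was 2.23 and the lowest of Pprc1 was 3.81.

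**Figure D4:**
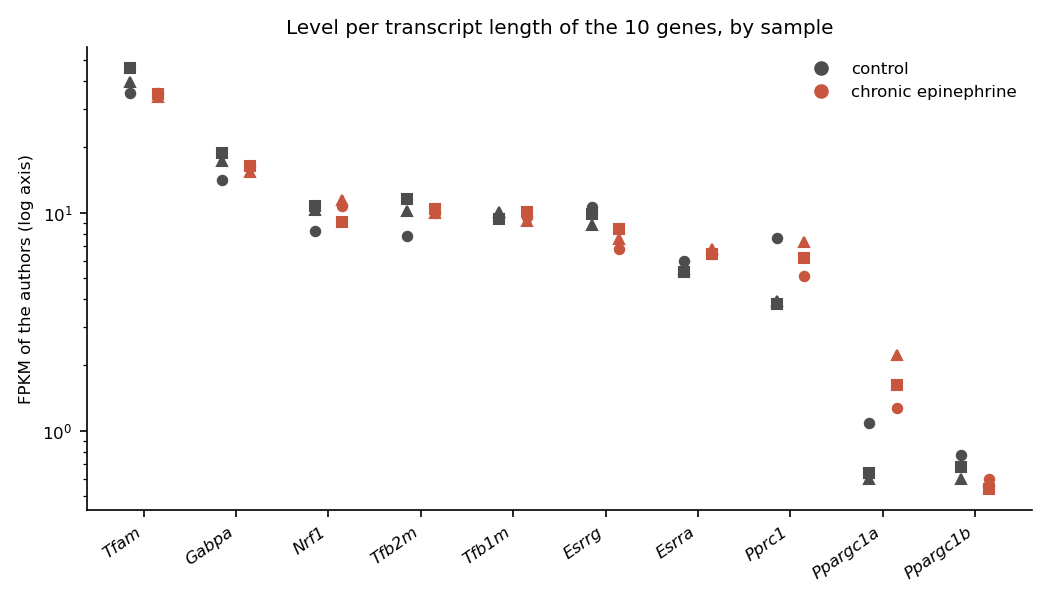
Level per transcript length (FPKM, log axis) of the 10 genes in each library, ordered by their mean over 6 samples, with controls in grey and epinephrine samples in red. Tfam lies at 33.8 to 46.0 FPKM and the coactivators Ppargc1a and Ppargc1b at 0.54 to 2.23 FPKM.

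The genes whose profile over the 6 libraries was most like that of each coactivator were taken by the smallest root mean square distance of log2 CPM, relative to the control mean, among 12746 genes. For Ppargc1a they were St7 (distance 0.0915), Adm2 (0.0961), which encodes a peptide of the calcitonin family, and Vipr2 (0.104), a receptor for the peptides VIP and PACAP. These had log2 fold changes of 0.94, 1.07 and 0.96. For Ppargc1b the nearest were Srbd1, B3galt5 and Virma, and for Pprc1 they were Klf5, Gys1 and Syvn1, at distances of 0.0555 to 0.0620. Each of the last 3 showed the split among controls that Pprc1 showed, such as Gys1 at 133, 83.3 and 81.2 CPM in controls 1, 2 and 3. Such likenesses, and the similar log2 fold changes, follow from the choice by distance and are not separate results.

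Beyond the 10 genes, 129 genes of the pathway were listed by role, and 121 of them were tested. At an FDR under 0.05, where 2.02% of all genes tested were higher, 2 rose, Pparg and Lonp1, and 0 fell by edgeR. At an unadjusted p under 0.05, 6 of the 121 were higher and 15 lower, where the shares of all genes tested were 9.19% and 7.91%. DESeq2 called 2 as higher and 3 as lower, beside 3.18% and 2.04% of its genes. Limma on FPKM called 2 as higher, Pparg and Lonp1, and 0 as lower, beside 1.57% and 0.486%. Without control 1, 11 of the 121 were called as higher and 22 as lower, beside 12.1% and 9.46% of all genes in that fit. The median log2 fold change was -0.01, and 26.4% of the 121 had groups without overlap, against 27.3% of all genes tested.

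**Figure D5:**
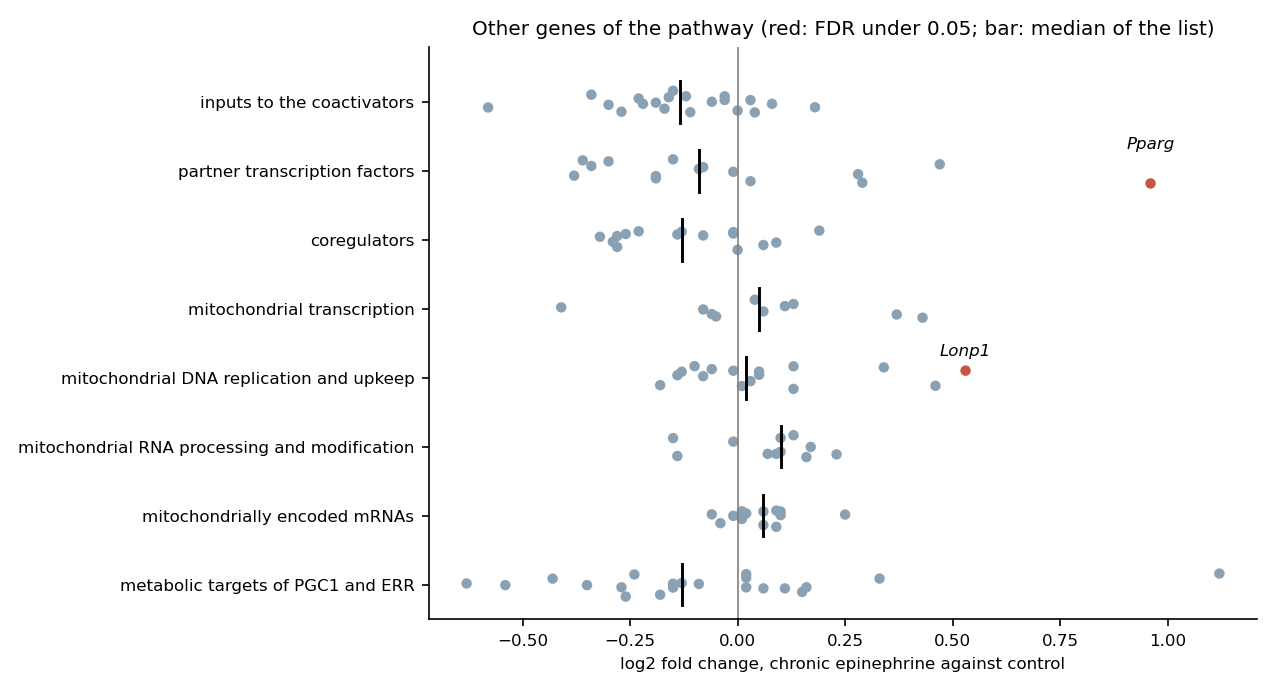
Log2 fold change after chronic epinephrine of the other pathway genes tested, by list, with each gene as a point, the median of the list as a bar, and genes at an FDR under 0.05 in red. Pparg at 0.96 and Lonp1 at 0.53 are the genes in red, and the medians lie between -0.14 and 0.10.

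Inputs to the coactivators were represented by CREB and its CRTC partners, AMP kinase subunits, sirtuins and similar genes, of which 20 of 21 were tested. None passed by edgeR or DESeq2. An unadjusted p under 0.05 was found for 4 of 20, all 4 of them lower, beside 7.91% of all genes tested that were lower. Negative log2 fold changes were found for 15 of the 20, and for 6436 of all 12747 genes tested. The median of the 20 was -0.14. Without control 1 the median was -0.04, 1 was called as higher and 5 as lower, beside 12.1% and 9.46% of all genes in that fit. Foxo1, an insulin-inhibited transcription factor that drives Ppargc1a in liver, stood at 111, 69.4 and 67.2 CPM in the controls and at 54.9 CPM in each epinephrine sample (log2 fold change -0.58, edgeR FDR 0.148). Every epinephrine sample lay below every control, and without control 1 the value was -0.31 (FDR 0.000275). Camkk2, a kinase upstream of AMP kinase, had a log2 fold change of -0.30 (FDR 0.175), and of -0.25 without control 1 (FDR 0.0377).

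Among partner transcription factors, Pparg, the nuclear receptor after which PGC1 alpha was named, rose from 3.56, 2.97 and 3.57 CPM in the controls to 6.46, 6.84 and 6.35 CPM after epinephrine. The groups did not overlap, and the log2 fold change of 0.96 (SE 0.15, edgeR FDR 0.0136) was close to that of Ppargc1a. It did not pass without control 2 or without any of the epinephrine samples, with FDR values of 0.0719 to 0.104. With the replicate number fitted as a block it did not pass either (FDR 0.0571). The summed leukocyte and alpha-cell markers were higher in the same samples, and their part in this result was not tested. Thra, a thyroid hormone receptor, had a log2 fold change of -0.36 (edgeR FDR 0.101, and 0.0406 with DESeq2), and of -0.28 without control 1 (FDR 0.00234). Of the 15 partners tested, 1 rose and 0 fell by edgeR, beside 2.02% and 0.612% of all genes tested. At an unadjusted p under 0.05, 4 were higher and 3 lower, beside 9.19% and 7.91% of all genes. Without control 1, 4 of the 15 were called as higher and 2 as lower, beside 12.1% and 9.46% of all genes. Of 15 coregulators 0 passed by edgeR and by DESeq2, and 3 had an unadjusted p under 0.05, all 3 of them lower, beside 7.91% of all genes tested that were lower. Without control 1, 2 were called as higher and 1 as lower, near the 12.1% and 9.46% of all genes. The smallest p-values were those of Smarcd1 and Ncoa2, which had log2 fold changes of -0.28 and -0.32 (edgeR FDR 0.255 and 0.266), and of -0.16 and -0.15 without control 1.

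In the mitochondrial matrix, Lonp1, the protease that degrades TFAM and damaged matrix proteins and is also a known target of ATF4, rose from 111, 106 and 112 CPM to 162, 155 and 159 CPM. The groups were far apart for their spread, with a log2 fold change of 0.53 (SE 0.08, edgeR FDR 0.0107), and the value lay between 0.50 and 0.54 whichever sample was left out, although the FDR rose to 0.0626 to 0.111 without control 2 or any epinephrine sample. Lonp1 was 1 of 16 genes tested for mitochondrial DNA replication and upkeep, and 0 fell, beside 2.02% of all genes tested called as higher and 0.612% as lower. The next by p, Top1mt, the mitochondrial topoisomerase, had a log2 fold change of 0.46 (FDR 0.145), and of 0.49 without control 1 (FDR 0.0261). In that fit 2 of the 16 were called as higher and 2 as lower, near the 12.1% and 9.46% of all genes. Of 10 genes of mitochondrial transcription 0 passed by edgeR or DESeq2. An unadjusted p under 0.05 was found for 0 of them, beside 17.1% of all genes tested. Without control 1, 0 were called as higher and 1 as lower, the terminator gene Mterf1a, beside 12.1% and 9.46% of all genes. Mterf1a had a log2 fold change of -0.41 (FDR 0.587), and of -0.73 without control 1 (FDR 0.00364). The RNA polymerase Polrmt itself had a log2 fold change of -0.08 (FDR 0.832), and Mrpl12 and Slirp, with the smallest p-values, had 0.37 and 0.43 (FDR 0.309 and 0.376), and 0.19 each without control 1. In 11 genes of mitochondrial RNA processing 0 passed by either tool, with Supv3l1 at 0.23 and Nsun4 at -0.15. Here too 0 had an unadjusted p under 0.05, beside 17.1% of all genes tested. Without control 1, 1 was called as higher, Supv3l1 at 0.36 (FDR 0.00505), and 0 as lower, beside 12.1% and 9.46% of all genes.

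The 13 mRNAs encoded by mitochondrial DNA are the direct product of TFAM, TFB2M and the polymerase. They took 5.67%, 8.66% and 9.003% of all counts in controls 1, 2 and 3 and 7.46%, 8.82% and 7.67% in the epinephrine samples. Control 1 was the lowest and the groups overlapped, with means of 7.78 ± 1.84% and 7.98 ± 0.731% (SD, n = 3, exact two-sided permutation p = 0.9). Their median log2 fold change was 0.06, and 0 passed by edgeR or DESeq2 or had an unadjusted p under 0.05. Of all genes, edgeR called 2.02% as higher and 0.612% as lower, DESeq2 called 3.18% and 2.04%, and 17.1% had an unadjusted p under 0.05. The smallest p-values were those of mt-Nd1 and mt-Nd3, at 0.25 and 0.10 (edgeR FDR 0.520 and 0.805), and at 0.07 and -0.08 without control 1. Without control 1 the median was -0.15, and 5 of the 13 were lower at an FDR under 0.05, beside 9.46% of all genes in that fit. The difference in their share of counts was 0.207 percentage points with all samples, -0.849 without control 1 and -0.21 without epinephrine 2, so its direction depends on single libraries.

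Genes listed as metabolic targets of PGC1 and ERR did not pass the test with all samples, and whether each is a target in these cells was not tested. Of 26 listed, 21 were tested, 0 passed by edgeR, and 5 had an unadjusted p under 0.05, all 5 of them with negative log2 fold changes, beside 7.91% of all genes tested. Pdk2, a kinase that restrains pyruvate dehydrogenase, stood at 22.3, 17.9 and 14.3 CPM in the controls and at 11.2, 12.1 and 11.9 CPM after epinephrine (log2 fold change -0.63, SE 0.16, edgeR FDR 0.0894). Sod2, the superoxide dismutase of the matrix, stood at 137, 134 and 128 CPM in the controls and at 111, 110 and 110 CPM after epinephrine (log2 fold change -0.27, SE 0.08, edgeR FDR 0.107). For both genes all epinephrine samples lay below all controls, and DESeq2 called both as lower, with FDR values of 0.0283 and 0.0145. Without control 1 they had -0.46 (FDR 0.00307) and -0.25 (FDR 0.000771). In that fit 6 of the 21 listed genes were called as lower, namely Acadvl, Cpt1a, G6pc2, Pdk2, Slc25a20 and Sod2, beside 9.46% of all genes. Only 1 was called as higher, Cs, beside 12.1% of all genes. The list median was -0.13, and -0.06 without control 1. Pck1, a liver enzyme of gluconeogenesis, passed the filter only without control 1, through 14 and 29 counts in controls 2 and 3, the libraries with hepatocyte markers, and is left out of these counts.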

How the data were processed

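RNA-seq of 3 control and 3 chronic epinephrine samples of MIN6 cells was analysed, grouped by the sample titles. The deposited values are an expected count per gene, which the authors left without scaling between samples, and an FPKM value that the authors scaled to transcript length and library total. The submitters' processing notes name GRCm38, and the aligner and counting tool are not given in the sources used here. Of the expected counts, 8.34% were not whole, and all were rounded. Genes kept by filterByExpr were normalized by TMM and tested in edgeR 4.0.16 (R 4.3.3) by quasi-likelihood F-test without covariates, and p-values were adjusted by Benjamini-Hochberg over 12747 genes (FDR, threshold 0.05). The SE is the log2 fold change divided by the square root of F. A count of 0 allows up to 3 counts, which is 0.165 to 0.200 CPM, and covers counting error only. The edgeR script was tested on simulated data. Alternatives were DESeq2 1.42.0, limma 3.58.1 on log2(FPKM + 1), other scalings and filters, replicate number as a block, and each sample left out in turn. The 10 genes, the lists and the tests were chosen with earlier results of these data known. Named genes were the 10, in each list those at an FDR under 0.05, or the 2 of smallest p where fewer than 2 passed, and the 3 nearest profiles of each coactivator. Polrmt, Mterf1a, Pck1, the targets named without control 1 and the beta-cell markers beyond Ins2 were named after their values were seen. Positions are those of GENCODE M21 and promoters those of RefSeq, both on GRCm38.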

Additional observations from a re-analysis of the deposited data

How the results depend on the processing

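Over all genes, edgeR called 257 as higher and 78 as lower, and leaving out a sample moved these counts to between 44 and 1572 and between 1 and 1226, with the highest without control 1. DESeq2 called 447 and 287. Replicate numbers were not taken as pairs, since deviations of samples with the same number correlated at 0.0502, 0.0677 and -0.0488, and with the replicate number as a block the counts were 150 and 28. Under that block Ppargc1a kept a log2 fold change of 0.99 (FDR 0.041), Pparg had an FDR of 0.0571, and 1 listed pathway gene was called as higher in place of 2. Of the 10 genes, 1 was called as higher and 0 as lower, and with a sample left out 0 to 2 were called as higher and 0 to 2 as lower. On log2(FPKM + 1) with limma, 0 were called as higher, and Ppargc1a had 0.61, Nrf1 0.09 and Tfb1m -0.01; Tfb1m was also at -0.01 with total counts only. With a sample left out, the log2 fold change lay between 0.94 and 1.03 for Ppargc1a, 0.16 and 0.62 for Pprc1, -0.45 and -0.29 for Esrrg, -0.19 and 0.03 for Tfam, -0.14 and 0.01 for Gabpa, -0.03 and 0.05 for Tfb1m, -0.09 and 0.19 for Tfb2m, and -0.08 and 0.21 for mt-Nd3. Listed pathway genes called as higher then numbered 0 to 11 and those called as lower 0 to 23, where 23 includes Pck1, which was tested only without control 1, and DESeq2 called 3 as lower. The cause of these shifts was not tested. With a sample left out, the difference in the share of mitochondrially encoded counts lay between -0.849 and 0.82 percentage points, and that in the log2 ratio of Tfb2m to Tfb1m between -0.08 and 0.22, so both turned. The ratios of Ppargc1a to Ppargc1b and of Esrrg to Esrra kept their direction. Ppargc1b and Ppargc1a had the fewest counts of the 10 genes, at 33 to 145 per library.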

Other observations

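The transcript length implied by counts and FPKM also varied between libraries for Nrf1 and Pprc1. For Nrf1 it was 2.82 kb in control 1 and 1.89 to 2.29 kb in the other 5 libraries, and for Pprc1 it ran from 3.60 kb in epinephrine 3 to 5.12 kb in epinephrine 1. The highest was 1.49 and 1.42 times the lowest, while the median of this ratio over the genes tested was 1.034. For Tfb1m and Tfb2m it was 1.4 and 2.45 kb in every library.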
